A study of Saccharomyces cerevisiae with 8 samples.

Results

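Of 5018 protein-coding genes of budding yeast, 38 had more polyadenylated RNA in each of 6 libraries without RRP6 than in either wild-type library, by a margin of more than 1.5 times. They were chosen as follows. Reading frames annotated as dubious or with hyphenated names were left out, and each library was scaled to CPM, its share of the counts outside the ribosomal DNA on the usual scale of reads per 1e6. A gene was taken if its lowest library without RRP6 exceeded 1.5 times its higher WT library and if the pair of rrp6 libraries held at least 50 counts. The table held 9014 features, of which 5590 were such coding genes, 5160 had the minimum count, and 45 met the criteria. LEU2, NRD1 and the ribosomal protein, COS and PAU genes RPL18B, RPS14B, COS8, COS10 and PAU12, 7 genes in all, were set aside by name. GSC2 and SER3, also excluded by name, would not have entered, with ratios of 0.932 and 1.15.

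The RNA came from 4 haploid strains, each a single colony grown in YPD at 30 °C until OD600 was near 2.5, with 2 libraries per strain. All carry MAT-alpha his3D1 leu2D0 lys2D0 ura3D0, the genotype of the wild type BY4742 (WT). The rrp6 strain adds rrp6::LEU2, the air1rrp6 strain adds rrp6::LEU2 and air1::bleR, and the air2rrp6 strain adds rrp6::LEU2 and air2::bleR; the last 2 names are short for the double deletions. Every strain without RRP6 therefore also carries LEU2, and the loss of RRP6 and the presence of LEU2 cannot be told apart. Both double deletions also carry bleR, which rrp6 lacks. Against rrp6, the loss of AIR1 or AIR2 and the presence of bleR likewise cannot be told apart. No label says whether duplicates came from separate cultures, so a p-value here reflects the spread of these samples alone, which may be technical.

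Rrp6 is a 3′ to 5′ exonuclease of the nuclear RNA exosome, which trims small nucleolar RNAs (snoRNAs) and removes cryptic transcripts and faulty mRNA precursors. The exosome is assisted by TRAMP, a complex that adds short adenosine tails to its substrates and contains Air1 or Air2, a pair of related zinc knuckle proteins. Nrd1 and Nab3 bind short motifs in nascent RNA, end transcription of snoRNAs and other short transcripts, and hand the RNA to TRAMP and the exosome. A few coding genes are known to be held down through these factors, among them NRD1 itself and NAB2, whose product binds poly(A) tails.

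Outside the ribosomal DNA the smallest library was WT replicate 1 (4565468 counts) and the largest WT replicate 2 (22041136). Ribosomal DNA took most of the counts in every library, 66.9 and 82.3% in WT and 51.7 to 70.8% without RRP6. RRP6 was at 82.6 and 96.7 CPM in WT and between 2.01 and 5.92 CPM in the 6 libraries labelled as lacking it. AIR1 was at 1.16 and 0.257 CPM in air1rrp6, and AIR2 at 2.66 and 2.49 CPM in air2rrp6. The summed level of 5 genes of alpha cells (STE3, MF(ALPHA)1, MF(ALPHA)2, SAG1 and AFB1) was 1882 to 2510 CPM in WT and 2056 to 3383 CPM without RRP6. Of these, MF(ALPHA)2 was lower in all 6 libraries without RRP6, at 55.9 to 224 CPM against 290 and 255 in WT. The sum of 7 genes of a cells was 27.3 to 38.8 and 26.8 to 42.2 CPM. Most of it was STE6, at 33.7 and 21.8 CPM in WT and 19.1 to 34.3 without RRP6. The a-factor gene MFA1 did not exceed 0.661 CPM in any library.

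The sequences that bear most directly on the group lie beside 3 of its genes. RefSeq R64 supplied all of them, cut by its own annotation, since the build behind the count table is not given in the sources used here. In YDR042C and FLX1 the nearest annotated gene upstream, on the same strand, is a box C/D snoRNA gene, SNR47 or SNR68. Box C (tgatga) and box D (ctga), which mark this snoRNA class, are in capitals wherever these letters occur:
SNR47: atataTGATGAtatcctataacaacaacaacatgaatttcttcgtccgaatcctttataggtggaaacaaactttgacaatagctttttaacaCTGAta
SNR68: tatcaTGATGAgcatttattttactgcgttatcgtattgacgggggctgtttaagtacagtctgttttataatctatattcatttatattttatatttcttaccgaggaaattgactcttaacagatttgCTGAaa
SNR47 occupies chrIV:541602-541700 on the minus strand and SNR68 chrIX:97111-97246 on the plus strand. The start codon of YDR042C lies 398 bases beyond SNR47, and that of FLX1 148 bases beyond SNR68.

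The first 100 bases past each snoRNA, where signals that end transcription of snoRNA genes usually lie, are shown next, with the Nab3 motif TCTT and the Nrd1 motifs GTAA and GTAG in capitals:
SNR47 downstream: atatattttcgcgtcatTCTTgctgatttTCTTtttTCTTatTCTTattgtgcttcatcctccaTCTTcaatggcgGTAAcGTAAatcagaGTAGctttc
SNR68 downstream: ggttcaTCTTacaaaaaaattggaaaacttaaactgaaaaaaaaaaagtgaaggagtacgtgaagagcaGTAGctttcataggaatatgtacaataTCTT
These windows are chrIV:541502-541601 on the minus strand and chrIX:97247-97346 on the plus strand. On the transcribed sense the SNR47 window held 5 TCTT, 2 GTAA and 1 GTAG, 8 matches in all, and none of the 76 snoRNA genes had more in the same span. The SNR68 window held 3 matches, equal to the median over all 76 windows. On the sense strand TCTT occurred in 84.2%, GTAA in 47.4% and GTAG in 39.5% of the 76 windows, and on either strand in 94.7, 75.0 and 46.1%. Matches were counted with overlaps allowed. The opposite strand of the SNR47 window held no match, and that of the SNR68 window held 1 TCTT and 1 GTAA. The motifs were picked for these factors after the members were known, and a match is not evidence of binding.

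The third sequence is the run of adenosines encoded downstream of the NAB2 stop codon, given in capitals within 30 bases at chrVII:278778-278807, minus strand:
NAB2: ttAAAAAAAAAAAAAAAAAAAAAAAAAAgt
The run is 26 bases long and begins 141 bases after the stop codon. Among 5140 coding genes, 7 (0.136%) had a run of at least this length within 300 bases of the stop codon, NAB2 included, against a median of 5 bases. The next longest run among the 36 members with a RefSeq entry was 14 bases, beside PCK1. Nab2 is known to keep its own mRNA low through this run together with Rrp6. RNA was selected here on poly(U) sepharose, and the part of the encoded run in recovering NAB2 RNA was not tested.

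The 38 genes made up 0.757% of the 5018 coding genes that could have met the rule. The mirrored criterion, with all 6 libraries below the lower WT library by the same factor, was met by 25 genes, or 0.498%. With no margin at all, 473 coding genes (9.43%) had all 6 libraries above both WT libraries and 419 (8.35%) had all 6 below. The downward counts were taken among the same 5018 genes, which needed at least 50 counts in the rrp6 pair. That minimum can remove genes that are low in rrp6, so upward and downward counts are not on an equal footing. Without WT replicate 1 the rule would have taken 105 genes, and without WT replicate 2, the deepest library, 178. In these cultures, RNA that is higher in some cells and RNA that is higher in all cells cannot be told apart. Since the rule used every comparison with WT, the levels below describe the group and are not tested.

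**Figure D1:**
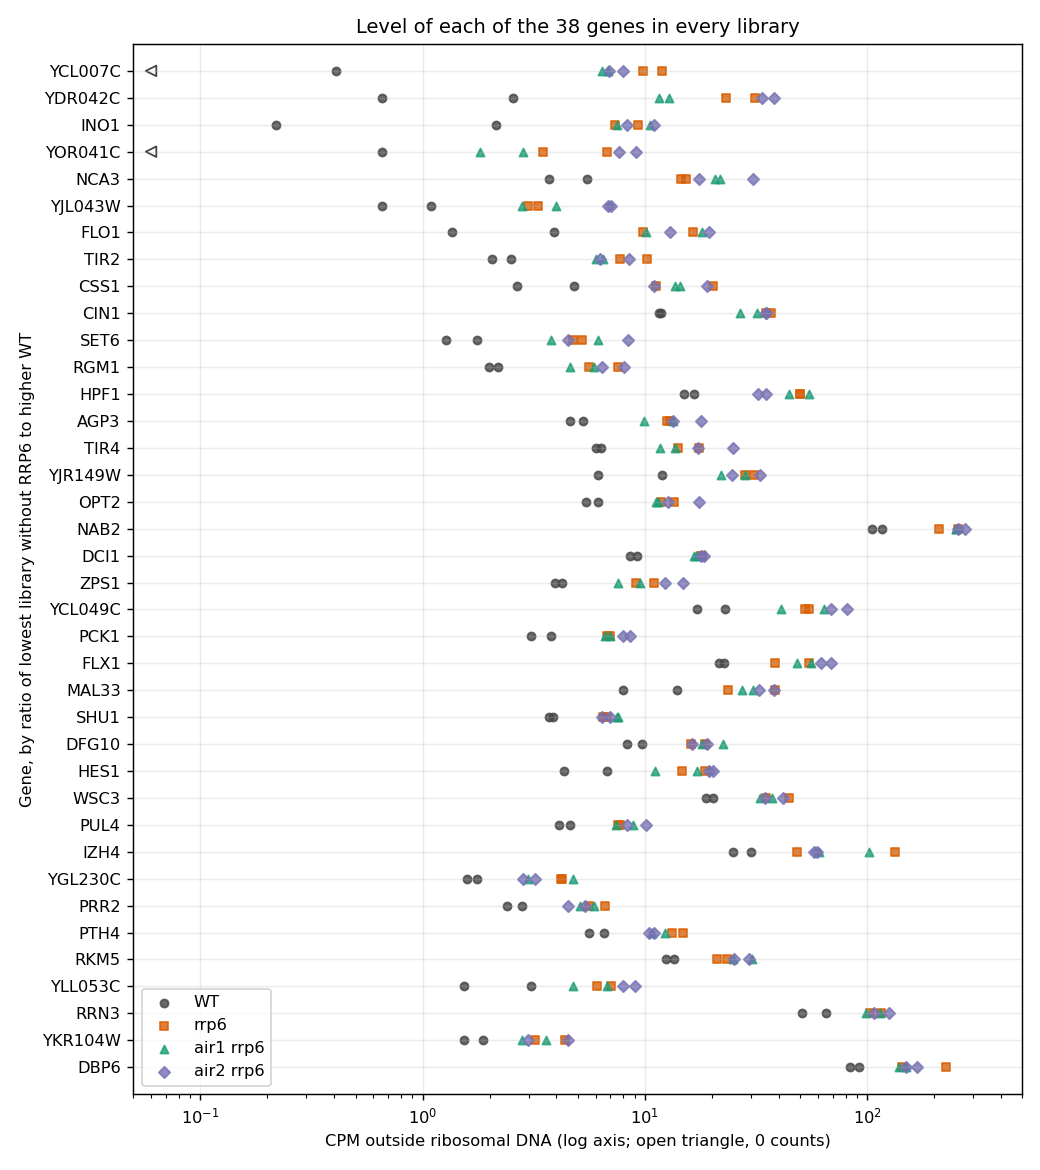
CPM outside the ribosomal DNA on a log axis for each of the 38 genes in all 8 libraries, with genes ordered from top to bottom by the ratio of the lowest library without RRP6 to the higher WT library. Each symbol is 1 library, and the open triangles mark the WT libraries with 0 counts of YCL007C and YOR041C. The separation is widest for YCL007C at the top, with a ratio of 15.8, and narrows to 1.503 for DBP6 at the bottom.

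Most of the group was modestly separated and lowly expressed. The ratio had a median of 1.80, and 12 genes exceeded 2. By mean CPM the median fold over WT was 2.63 in rrp6, 2.43 in air1rrp6 and 3.08 in air2rrp6, while the median log2 ratio over all coding genes was -0.03, 0.02 and 0.03. Per kilobase of coding length, the median WT level was 4.39 CPM for the 36 genes with a RefSeq entry and 36.0 CPM for all 5151 coding genes placed. In rrp6 these medians were 13.9 and 34.4 CPM per kilobase. WT replicate 1 held fewer than 10 counts for 11 of the genes, so their WT level rests on few reads. Leaving out a library can only keep or raise a ratio. Leaving out WT replicate 2 raised it by more than 1.5 times for 8 genes with a finite ratio. It rose to 17.6 for YDR042C, 33.5 for INO1, 4.27 for YJL043W and 7.24 for FLO1. CSS1 rose to 4.14, YJR149W to 3.58, MAL33 to 2.95 and YLL053C to 3.11. YCL007C then had no finite ratio, nor had YOR041C without WT replicate 1, since the WT library left held 0 counts. Leaving out WT replicate 1 raised that of HES1 to 2.57, and leaving out air1rrp6 replicate 1 raised that of YOR041C to 4.31.

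The genes without a symbol, 9 of the 38, included the widest separations. YCL007C had 0 and 0.408 CPM in WT, 11.9 and 9.84 in rrp6, 6.44 and 6.82 in air1rrp6, and 7.99 and 6.89 in air2rrp6. It was nearly absent from WT, with 9 counts in all, and its pooled level was 32.8 times WT in rrp6 (exact 95% counting interval 17 to 72.6). YOR041C had 0.657 and 0 CPM in WT, 6.75 and 3.49 in rrp6, 1.82 and 2.83 in air1rrp6, and 7.68 and 9.14 in air2rrp6. Only 3 counts stood behind its WT level, so its ratios were 48.5 in rrp6 (interval 16.2 to 239), 21.2 in air1rrp6 (6.64 to 108) and 73.3 in air2rrp6 (24.7 to 359). These intervals are Clopper-Pearson and cover counting error only. Neither YCL007C nor YOR041C matched a gene of the RefSeq table, and they were kept because the authors' deposited table does not annotate them as dubious. Their positions and any overlap with other genes were not examined, so their reads may belong to other transcripts.

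YDR042C, the uncharacterized gene downstream of SNR47, had 0.657 and 2.54 CPM in WT, 31.3 and 23.3 in rrp6, 11.6 and 12.9 in air1rrp6, and 33.8 and 38.1 in air2rrp6. Its means were 17.1 times WT in rrp6, 7.64 times in air1rrp6 and 22.5 times in air2rrp6, so the air1rrp6 libraries lay between WT and the rest. YJL043W, also uncharacterized, had 0.657 and 1.09 CPM in WT, 3.30 and 2.99 in rrp6, 2.81 and 3.99 in air1rrp6, and 6.82 and 7.01 in air2rrp6. Here the air2rrp6 pair stood above all other libraries. The remaining 5 genes without a symbol had ratios of 1.83 for YJR149W, 1.77 for YCL049C, 1.61 for YGL230C, 1.54 for YLL053C and 1.51 for YKR104W. In the annotation column of the authors' deposited table, 12 of the 38 genes (31.6%) had no gene name, against 11.6% of the 5160 coding genes with the minimum count.

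Genes of the cell wall and cell surface were the largest role among the named members, with 8 of them and a median fold over WT of 3.19 in rrp6, 2.94 in air1rrp6 and 3.37 in air2rrp6. The grouping by role was made after the genes were known and has no background share. The separate cell wall list held 3 members, TIR2, TIR4 and FLO1, among its 47 genes with the minimum count. FLO1, a lectin-like wall protein that makes cells clump, had 1.36 and 3.88 CPM in WT, 9.81 and 16.5 in rrp6, 18.1 and 10.1 in air1rrp6, and 19.4 and 13 in air2rrp6. Within each strain without RRP6 its duplicates differed by more than the means of those strains did, while all 6 libraries lay above both WT libraries. TIR2 and TIR4 encode mannoproteins of the cell wall known for induction by cold and low oxygen, and they are neighbours on chromosome XV. TIR2 had 2.05 and 2.50 CPM in WT, 10.3 and 7.71 in rrp6, 6.05 and 6.45 in air1rrp6, and 8.45 and 6.28 in air2rrp6. TIR4 had 6.35 and 6.03 CPM in WT, 17.4 and 14.1 in rrp6, 13.7 and 11.7 in air1rrp6, and 24.8 and 17.3 in air2rrp6. The pair converges, with 396 bases between the genes, and lies 15.3 kb (TIR4) and 17.2 kb (TIR2) from the deleted RRP6 locus in RefSeq R64. The part of that proximity was not tested.

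HPF1, a wall mannoprotein, and ZPS1, a surface protein induced by low zinc and high pH, are also neighbours, facing away from each other. HPF1 had 16.6 and 15.1 CPM in WT, 49.8 and 49.6 in rrp6, 54.9 and 44.5 in air1rrp6, and 32.4 and 35.0 in air2rrp6. ZPS1 had 3.94 and 4.22 CPM in WT, 11 and 9.09 in rrp6, 7.60 and 9.52 in air1rrp6, and 12.4 and 14.8 in air2rrp6. Within the neighbour pair the air2rrp6 strain was lowest of the strains without RRP6 for HPF1 and highest for ZPS1. The other members of this role were NCA3 of the SUN family of wall proteins (ratio 2.66), CSS1 (2.28) and WSC3, a sensor of wall stress (1.63). FLO1, TIR2, CSS1, HPF1, MAL33 and YLL053C, 6 members, had counts that were not whole numbers. Such counts can come from reads shared with similar genes, so their separate values are uncertain.

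The 3 genes above 100 CPM in rrp6, NAB2, DBP6 and RRN3, all act in RNA metabolism or ribosome synthesis. NAB2 had 116 and 105 CPM in WT, 211 and 256 in rrp6, 250.4 and 250.3 in air1rrp6, and 276 and 256 in air2rrp6. Its mean was 2.11 times WT in rrp6, 2.26 times in air1rrp6 and 2.41 times in air2rrp6, and no library without RRP6 came near the WT pair. RRN3, an initiation factor of RNA polymerase I, had 51.0 and 65.0 CPM in WT, 103 and 115 in rrp6, 98.6 and 115 in air1rrp6, and 107 and 125 in air2rrp6. DBP6, a DEAD-box protein of large ribosomal subunit assembly, had 84.1 and 92.3 CPM in WT and 139 to 226 CPM without RRP6, the highest value being rrp6 replicate 1. RKM5, a lysine methyltransferase acting on a ribosomal protein, and PTH4, which resembles translation release factors, had ratios of 1.57 and 1.59. Over these 5 genes the median fold was 2.09, 1.90 and 2.003 in rrp6, air1rrp6 and air2rrp6.

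Among enzymes and lipid-handling proteins INO1 was the most separated. INO1, which makes inositol phosphate for phospholipid synthesis and is repressed by inositol, had 0.219 and 2.13 CPM in WT, 9.33 and 7.35 in rrp6, 10.6 and 7.46 in air1rrp6, and 11.05 and 8.31 in air2rrp6. WT replicate 1 held 1 count of it, and the 6 libraries without RRP6 lay in a narrow range above both WT values. PCK1, an enzyme of gluconeogenesis repressed by glucose, had 3.07 and 3.77 CPM in WT and 6.61 to 8.62 CPM without RRP6. HES1, an oxysterol-binding protein, had a ratio of 1.63, DFG10, an enzyme of dolichol synthesis, 1.65, and DCI1, a peroxisomal protein, 1.80. DCI1 varied little between duplicates, with 9.20 and 8.57 CPM in WT and 16.6 to 18.5 CPM in the other 6 libraries.

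Transporters and membrane proteins contributed 4 genes. FLX1, a mitochondrial carrier for flavin nucleotides that lies downstream of SNR68, had 22.8 and 21.6 CPM in WT, 38.4 and 54.9 in rrp6, 56.0 and 48.1 in air1rrp6, and 68.5 and 62.0 in air2rrp6. IZH4, a membrane protein of zinc homeostasis, had 30.01 and 25 CPM in WT, 133 and 48.4 in rrp6, 60.6 and 102 in air1rrp6, and 57.7 and 59.3 in air2rrp6. A single rrp6 library accounted for much of the IZH4 mean, which was 90.7 ± 60 CPM (SD, n = 2). AGP3, an amino acid permease, and OPT2, an oligopeptide transporter, had ratios of 1.88 and 1.83.

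Regulators and the last named genes were separated by 1.60 to 2.26 times. The regulators were SET6 (ratio 2.17), a SET domain protein, RGM1 (2.11), a zinc finger protein, MAL33 (1.68), the activator of maltose genes, PUL4 (1.62), a zinc cluster protein, and PRR2 (1.60), a protein kinase. CIN1, a factor in the folding of beta-tubulin, had 11.6 and 11.8 CPM in WT, 37.0 and 35.2 in rrp6, 31.9 and 26.8 in air1rrp6, and 35.2 and 35.2 in air2rrp6. SHU1, which acts in recombination repair, had a ratio of 1.66. All 6 CIN1 libraries without RRP6 lay well above the WT pair, and air1rrp6 held the lowest 2 of them.

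At the border of the rule the values ran on without a gap. Just inside lay DBP6 (1.503), YKR104W (1.51), RRN3 (1.52) and YLL053C (1.54), and just outside lay YAT2 (1.49), SNF11 (1.47), TAD2 (1.47) and CTA1 (1.47). Of 20 lists of genes with a shared function or use, 6 held members. The zinc list held 3 members, IZH4, ZPS1 and INO1, and 5 of its 15 genes with the minimum count had all 6 libraries above both WT libraries, with none below. The hexose and carbon list held MAL33 and PCK1, the nitrogen list AGP3 and OPT2, the zinc cluster list MAL33 and the termination list NAB2. PUL4, also a zinc cluster protein, was not on the zinc cluster list, which is therefore incomplete. Of 47 cell wall genes 10 were above and 2 below, of 43 zinc cluster regulators 11 above and 1 below, and of 19 termination factors 5 above and none below. Of 32 genes of hexose transport and alternative carbon use 7 were above and 2 below, and of 41 genes of nitrogen and amino acid uptake 8 above and 3 below. These counts are to be read beside the 9.43% above and 8.35% below among 5018 coding genes, and they come from the contrast that chose the members. The sets differ slightly, since lists kept genes set aside by name, such as LEU2 among the marker genes, and the 5018 genes did not. Members were left in both.

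The other 14 lists held none of the 38 genes. General stress genes had 1 of 36 above and 1 below, heat shock chaperones 4 of 25 above and 1 below, and meiosis genes 4 of 24 above and none below. Nucleotide genes under early termination had 0 of 12 above and 4 below, silencing and chromatin genes 0 of 29 above and 4 below, and genes of the exosome and TRAMP 3 of 18 above and 1 below. DNA damage genes had 5 of 29 above, iron and copper genes 3 of 39 above, drug efflux genes 2 of 24 above and 1 below, and mRNA decay and export genes 2 of 44 above and 1 below. Haploid mating genes had 1 of 20 above and 1 below, alpha cell genes 2 of 9 above and 1 below, a cell genes 1 of 2 above, and deleted or marker genes 1 of 5 above and 1 below.

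Position on the chromosome was not part of the rule. Of the 36 placed genes, 7 (19.4%) lay within 30 kb of a chromosome end, against 232 of 5151 coding genes (4.504%). They were FLO1, MAL33, AGP3, CSS1, YKR104W, HPF1 and OPT2, and the median distance was 98400 bases for the group and 210847 bases for all coding genes. Of these 7, FLO1, MAL33, CSS1 and HPF1 had counts that were not whole numbers, which can come from reads shared with similar genes. The shares were not matched for expression level, and the median WT level per kilobase was lower in the group than in all coding genes. Of the 232 coding genes near an end, 48 (20.7%) had all 6 libraries above both WT libraries, against 8.86% of the 4919 farther away. With the members left out these shares were 18.2% of 225 genes and 8.32% of 4890. The COS and PAU genes, which are mostly found near chromosome ends, were dropped from the group by name. They were not removed from the coding genes behind these shares, also where the members were left out. COS8, COS10 and PAU12, which met the criteria on values, are among those not removed. Median coding length was 1169 bases in the group and 1308 bases overall. The next gene upstream was on the same strand for 18 of the 36 genes and for 49.3% of coding genes, so orientation was nearly the same.

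**Figure D2:**
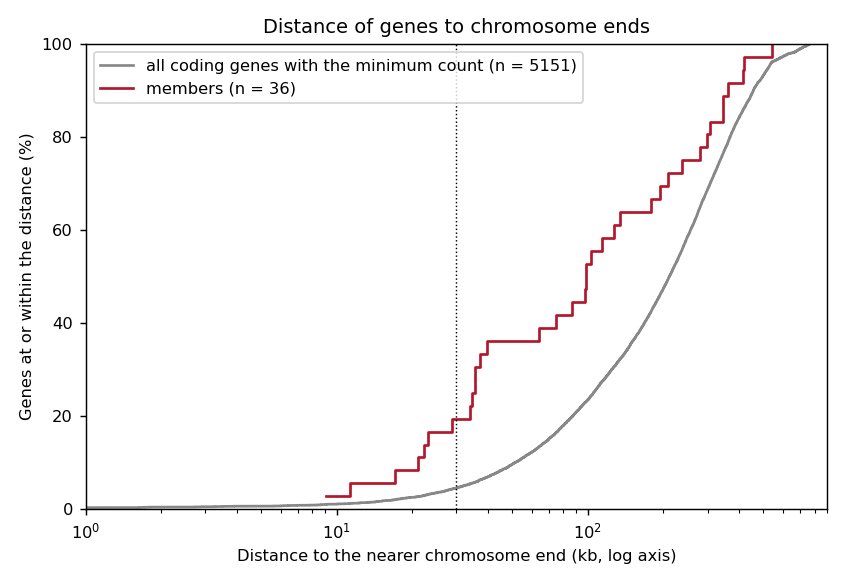
Cumulative percentage of genes (vertical axis) within a given distance of the nearer chromosome end (horizontal axis, kb, log scale) for 36 members and 5151 coding genes with the minimum count. At the dotted line, 30 kb, the members stand at 19.4% and all coding genes at 4.504%.

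Downstream of a snoRNA gene on the same strand lay 2 of the 36 placed genes (5.56%), YDR042C and FLX1, against 25 of 5151 coding genes (0.485%). All 25 were then examined. In 6 of them (24.0%) all libraries without RRP6 exceeded both WT libraries, against 9.4% of all placed coding genes. Leaving out the members, which the rule made pass, it was 4 of 23 (17.4%) against 8.76%. These 4 were USE1, a SNARE protein gene below SNR82 (ratio 1.44), RGT1, a glucose-responsive repressor gene below SNR69 (1.18), PMD1 (1.02) and CAF40 (1.01). RGT1 had 66.8 and 60.1 CPM in WT, 236 and 133 in rrp6, 111 and 78.6 in air1rrp6, and 224 and 164 in air2rrp6. As in YDR042C, its air1rrp6 libraries were the lowest of the 6. The other 19 genes had ratios of 0.938 and below.

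**Figure D3:**
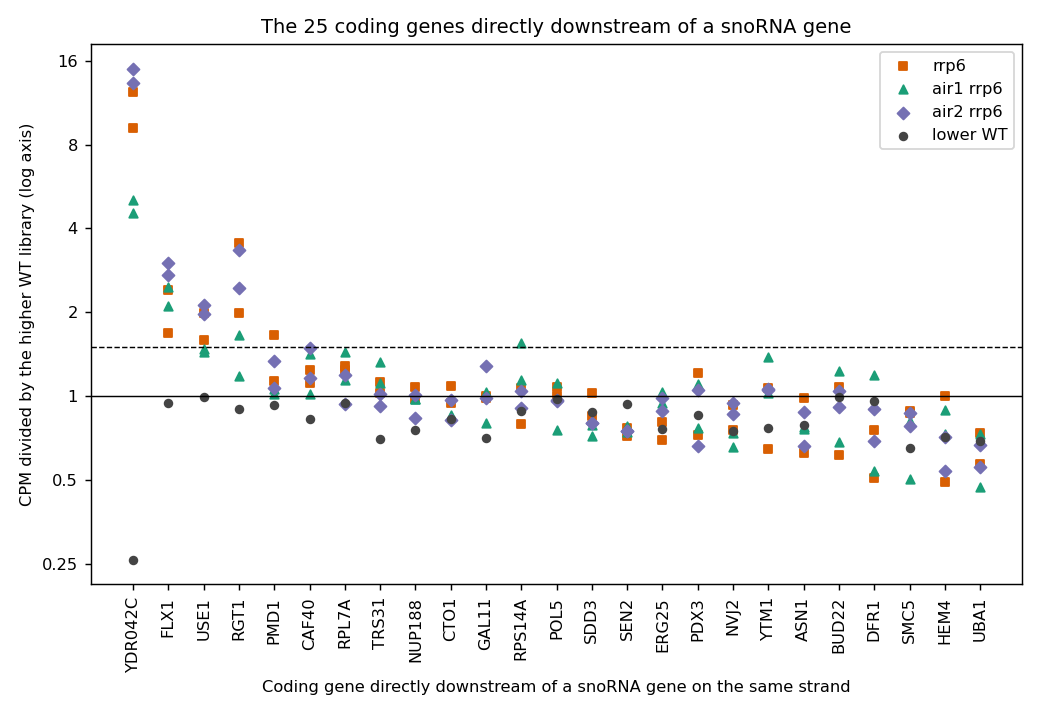
CPM divided by the higher WT library (log axis) for the 25 coding genes whose next upstream neighbour is a snoRNA gene on the same strand. Each symbol is 1 library, circles are the lower WT library, and the dashed line is the margin of 1.5. YDR042C and FLX1 lie wholly above it, and most other genes scatter around 1.

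The snoRNAs upstream of both members had their own order of strain means. Their values are for RNA recovered on poly(U) sepharose and may not follow the level of the mature snoRNA. No test of the snoRNAs is given here. SNR47 had 121 and 203 CPM in WT, 483 and 321 in rrp6, 299 and 165 in air1rrp6, and 157 and 183 in air2rrp6. SNR68 had 68.8 and 78.7 CPM in WT, 447 and 272 in rrp6, 311 and 198 in air1rrp6, and 118 and 185 in air2rrp6. For both snoRNAs the air2rrp6 mean was the lowest of the strains without RRP6, whereas for YDR042C and FLX1 it was the highest. These orders rest on means of 2 libraries. For SNR47 air1rrp6 replicate 2 lay between the air2rrp6 libraries. The log2 fold change for air2rrp6 over rrp6 was 0.34 (SE 0.36) for YDR042C and 0.45 (SE 0.23) for FLX1, and neither passed the adjusted threshold. The genes next in order did not share one pattern. SNR69, upstream of RGT1, was also lowest in air2rrp6, at 77.9 and 144 CPM. SNR82, upstream of USE1, was instead highest there, at 460 and 471 CPM against 250.3 and 434 in rrp6 and 344 and 414 in air1rrp6, as was USE1 itself. The sources used here do not say whether counting followed strand, and reads from opposite strands may be mixed where genes overlap. Among the 36 placed members, SET6 overlaps ATG29 on the opposite strand, and YLL053C overlaps AQY2 on the same strand. Overlap was not examined for YCL007C and YOR041C.

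Comparisons among the strains without RRP6 ask whether these RNAs differed where AIR1 or AIR2 was replaced by bleR in addition to the loss of RRP6. They were not used directly to choose the members, but the rule bears on them. It required all 6 libraries to be high, and it set a minimum count on the rrp6 pair alone. Without that minimum 66 genes would have passed instead of 38. The comparisons of air1rrp6 and air2rrp6 with rrp6 are therefore not free of the rule. Under the quasi-likelihood test of edgeR, with p-values adjusted by Benjamini-Hochberg across 7543 features, 0 of the 38 members passed 0.05 in any of the 3 comparisons, in either direction. With 2 libraries a strain, a missed threshold does not show that levels were alike, and the median SE of a member's log2 fold change was 0.33 for air1rrp6 over rrp6. The background was low as well. For air1rrp6 over rrp6 0.0% of features were called higher and 0.0663% lower, for air2rrp6 over rrp6 0.0% and 0.0133%, and for air1rrp6 over air2rrp6 0.0133% and 0.0663%. At an unadjusted p under 0.05 the members numbered 1 in the first comparison, 2 in the second and 5 in the third, where 5.69, 2.66 and 3.99% of all features did. DESeq2 called 1 member, YDR042C, as lower in air1rrp6 than in air2rrp6, where it called 0.133% of features lower, and no other member in any comparison. DESeq2 called 0.0398% of features higher and 0.106% lower for air1rrp6 over rrp6, 0.0133% and 0.265% for air2rrp6 over rrp6, and 0.146% higher for air1rrp6 over air2rrp6. It left the adjusted p of members undefined in 35 instances over the 3 comparisons.

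YDR042C had the smallest adjusted p of the members for air1rrp6 over air2rrp6. Its log2 fold change was -1.22 (SE 0.37, n = 2, edgeR adjusted p = 0.784) for air1rrp6 over rrp6, and the authors' deposited table lists -1.21 with a p-value of 0.00193 for the same comparison. For air1rrp6 over air2rrp6 it was -1.56 (SE 0.37, edgeR adjusted p = 0.652, DESeq2 adjusted p = 0.0273), with both air1rrp6 libraries below both air2rrp6 libraries. The call thus depended on the tool. Over the alternatives the adjusted p ranged from 0.0273 to 1.0 for this comparison and from 0.13 to 1.0 for air1rrp6 over rrp6. YOR041C, at -1.84 (SE 0.74, edgeR adjusted p = 0.991), had the largest difference of this comparison but far fewer counts. YJL043W had 1.08 (SE 0.42, edgeR adjusted p = 1.0) for air2rrp6 over rrp6, and HPF1 had -0.61 (SE 0.22, edgeR adjusted p = 1.0). In the authors' deposited table p-values under 0.05 also stood beside YOR041C (-1.21, p-value 0.0105) for air1rrp6 over rrp6, and beside YJL043W (1.07, p-value 0.0134) and IZH4 (-0.72, p-value 0.0499) for air2rrp6 over rrp6. Whether those p-values were adjusted is not stated there. NAB2 had a small fitted difference, at 0.06 (SE 0.19, edgeR adjusted p = 0.956) for air1rrp6 over rrp6 and 0.15 (SE 0.19, edgeR adjusted p = 1.0) for air2rrp6 over rrp6.

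**Figure D4:**
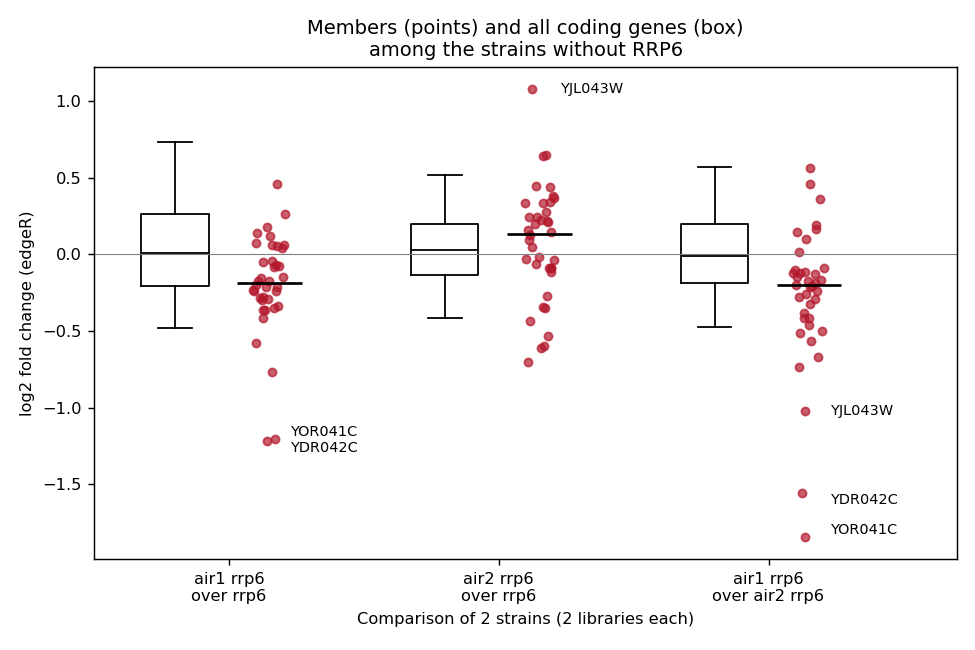
Log2 fold changes from edgeR (vertical axis) in the 3 comparisons among the strains without RRP6, 2 libraries each. Points are the 38 members with a line at their median, and boxes give the quartiles of all coding genes tested with whiskers at percentiles 5 and 95. The member medians are -0.19, 0.14 and -0.20, and YDR042C and YOR041C lie lowest where air1rrp6 is compared.

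More members had lower than higher fitted levels in air1rrp6, compared with either rrp6 or air2rrp6. For air2rrp6 over rrp6 the signs alone were split nearly as in all coding genes. The median log2 fold change was -0.19 for air1rrp6 over rrp6, where all coding genes had 0.01, and 10 of 38 members were above 0, against 51.1% of coding genes. For air2rrp6 over rrp6 it was 0.14, where all coding genes had 0.03, and 22 of 38 members were above 0, against 54.3% of coding genes. For air1rrp6 over air2rrp6 it was -0.20, where all coding genes had -0.01, and 8 of 38 members were above 0, against 48.2% of coding genes. The comparisons share libraries and are not independent of each other. Since the minimum count was set on the rrp6 libraries alone, the choice of members can favour genes that are high in rrp6. The part of this in the comparisons with rrp6 was not tested. Both duplicates lay apart, with air1rrp6 above rrp6, for 3 members (7.89%), against 21.3% of coding genes, and below it for 10 (26.3%), against 15.6%. With air2rrp6 above rrp6 there were 14 (36.8%), against 19.8%, and below it 6 (15.8%), against 9.74%. In the last comparison 19 of 38 members had both air1rrp6 libraries below both air2rrp6 libraries, against 18.9% of coding genes, and 3 had the reverse, against 18.4%. NAB2, FLX1, CIN1, TIR4, OPT2, ZPS1, PCK1 and HES1 were among the 19, and HPF1, SHU1 and IZH4 were the 3. By mean CPM, air1rrp6 was the lowest of the strains without RRP6 for 22 of the 38 genes, against 35.6% of coding genes, and air2rrp6 was the highest for 22, against 35.0%. Replicate 1 of air1rrp6 was the lowest of the 6 libraries for 16 members and replicate 2 for 7.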

How the data were processed

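Polyadenylated RNA was selected on poly(U) sepharose and sequenced on the SOLiD platform, per the labels' protocols. The authors deposited unscaled expected counts per feature, and 11.1 to 13.05% of values per library are not whole. Upstream tools were edgeR 2.2.5, SAMtools and Bowtie 0.12.7, per the submitters' processing notes; the build, annotation and settings were not given in the sources used here. A second table deposited by the authors gives log2 ratios and p-values per comparison, per the file headers, and its p-value column for rrp6 against WT was not used.

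The members, gene lists, motifs and named genes were chosen with earlier results of these data known. Named genes were the 20 members with the largest ratios, those past the threshold among strains, the 4 nearest to the ratio of 1.5 on each side, up to 4 members of each list, the 5 with the highest CPM in rrp6, members below a snoRNA gene or beside another member, the deleted genes and LEU2, and genes dropped by name. The remaining members, the other genes below snoRNA genes, and those named for an unadjusted p were chosen after their values were seen. Expected counts were rounded, features kept by filterByExpr (minimum count 10), scaled by TMM and fitted with edgeR 4.0.16 in R 4.3.3, 1 mean per strain over 8 libraries. DESeq2 1.42.0 was an alternative. The fitting was tested on simulated data. SEs are those of log2 fold changes. Positions and sequences are from RefSeq R64, which held 36 of the 38 genes, and distances are on that build. No column was left out.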

Additional observations from a re-analysis of the deposited data

How the results depend on the processing

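The number of genes that met the rule depended on its settings: 38 as reported, 121 at a ratio of 1.2, 12 at a ratio of 2, 157 with CPM over all counts, 30 on the TMM scale, 25 with at least 200 counts in rrp6 and 66 with no minimum count. Over left-out libraries it ran from 38 to 178, with 105 without WT replicate 1 and 178 without WT replicate 2. Leaving out a library cannot lower any ratio, and only the minimum count in rrp6 could then remove a gene. The lower end of this range is therefore no measure of stability. With CPM over all counts the median log2 ratio of coding genes to WT stood at 0.50 in rrp6, 0.63 in air1rrp6 and 0.83 in air2rrp6, against -0.03, 0.02 and 0.03 as reported, and that scale dropped 5 of the 38 (HES1, PUL4, YGL230C, PTH4 and DBP6), and the TMM scale dropped 8. Among the strains without RRP6, 0 members were called in every left-out library, with the replicate block, with other scalings, with no filter and with WT left out, and 1 was called lower in air1rrp6 than air2rrp6 with DESeq2. Same-numbered libraries deviated together (correlations 0.13 to 0.37 in the 6 strain pairs), though the labels do not tie the numbers to a batch. The member median for air1rrp6 over air2rrp6 ran from -0.26 to -0.13 over left-out libraries, for air1rrp6 over rrp6 from -0.20 to -0.09, and for air2rrp6 over rrp6 from 0.09 to 0.14. The cause of these differences was not tested. Few counts in WT replicate 1 limit the WT level of the lowest genes.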
